A study of Mus musculus with 4 samples.

Results

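The Krt4 Psca cells described here were epithelial cells of cultured urogenital sinus explants that carried at least 5 unique molecular identifiers (UMIs, counted mRNA molecules) of *Krt4* and *Psca* together. They were selected on these measured values among cells of culture days 3 and 6 with more than 1000 detected genes, less than 7.5% mitochondrial UMIs, at least 1 *Epcam* UMI and fewer than 2 *Pax2* UMIs. The limits gave 255 cells, 141 from day 3 and 114 from day 6, of 3529 *Epcam*-positive, *Pax2*-low cells of these days, 7474 cells deposited for the explants and 19148 in the whole series. Levels of *Krt4* and *Psca* in these cells are therefore given only as a description.

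The explants were urogenital sinuses of ICR (CD-1) embryos taken at embryonic stage E15.5. They were cultured on a filter membrane of 0.65 µm pores with 10 µM dihydrotestosterone for 1, 3 or 6 days, all in this medium. Day 0 was stage E15.5 itself, before culture, so it differs from the later days in medium and dihydrotestosterone too. Their middle regions were microdissected, explants of a time point were pooled after dissociation, live EPCAM+ cells were sorted, and all days were loaded as 1 droplet-based 3′ scRNA-seq library. Each day is thus 1 sample without a replicate, and no p-value is given: intervals are 95% exact Poisson intervals for levels and exact binomial intervals for shares, which cover counting error only. Single cells differ by more than that. The adult cells set beside them came from intact, more than 8 weeks old P2-*Runx1*:RFP reporter mice of the same strain, also pooled and sorted for EPCAM, in 3 runs. RFP in these mice is driven by the proximal P2 promoter of *Runx1*.

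*Krt4* encodes a type II keratin of stratified mucosal epithelia, and *Psca*, prostate stem cell antigen, a GPI-anchored protein of the Ly6 family found in urothelium and in the ducts near the urethra. The urogenital sinus epithelium is a stratified sheet: cells in contact with the basement membrane make *Krt5*, *Krt14*, *Krt15* and *Trp63*, and inner cells turn to other keratins, junction proteins and, in bladder and urethra, uroplakins. Prostate buds grow out of this sheet under androgen, and in the adult the ducts closest to the urethra keep luminal cells that express *Krt4*, *Psca* and *Runx1*.

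The day of each cell was read from a MULTI-seq oligo, a lipid-anchored tag that marks the cells of 1 suspension before pooling. The sequences are shown because the day of every cell rests on them, and the capitals are the 8-base barcode that was counted.
Day 0: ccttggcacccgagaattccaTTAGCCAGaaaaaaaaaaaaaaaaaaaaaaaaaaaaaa
Day 1: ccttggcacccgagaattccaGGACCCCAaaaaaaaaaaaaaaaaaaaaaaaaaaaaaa
Day 3: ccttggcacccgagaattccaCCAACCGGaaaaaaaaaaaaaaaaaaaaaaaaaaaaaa
Day 6: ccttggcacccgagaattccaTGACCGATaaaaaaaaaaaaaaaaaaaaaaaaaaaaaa
A cell was given the day whose barcode count, divided by that barcode's library median, was at least 3 and at least 2 times the next. Of the 6614 cells within the limits on genes and mitochondrial UMIs, 1073 received no day. Among the *Epcam*-positive, *Pax2*-low cells without a day, 118 of 1048 (11.3%, 95% interval 9.41 to 13.3) met the *Krt4* and *Psca* limit. The explant library shared 16 cell barcodes with the adult runs, none of them a Krt4 Psca cell.

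The Krt4 Psca cells were a smaller share of the epithelium on day 6 than on day 3. They made up 141 of 1042 cells (13.5%, 95% interval 11.51 to 15.8) on day 3 and 114 of 2487 cells (4.58%, 3.80 to 5.48) on day 6, and the counting intervals did not overlap. By the same limits the share was 128 of 824 cells (15.53%, 13.1 to 18.2) on day 0 and 153 of 902 cells (17.0%, 14.6 to 19.6) on day 1. Days 0, 1 and 3 had overlapping intervals, and day 6 stood below them. Depth differed little between the Krt4 Psca cells and the other cells of days 3 and 6, with medians of 18697 and 17115 UMIs per cell on day 3 and 14788.5 and 13436 on day 6. On days 0 and 1 it differed more, at 38139.5 and 17252.5 UMIs and at 33542 and 16487 UMIs, and a limit in UMIs is easier to pass in a deeper cell. With a limit of 5 per 10000 UMIs in its place the share was 11.04% on day 3 and 3.30% on day 6.

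**Figure D1:**
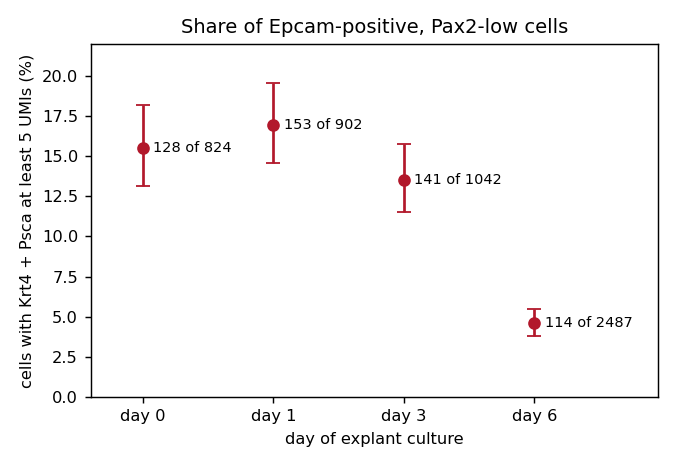
Share of *Epcam*-positive, *Pax2*-low explant cells with at least 5 *Krt4* and *Psca* UMIs (vertical axis, %) by day of culture (horizontal axis); points are 1 pooled sample each and bars are 95% exact binomial intervals. The share was 15.53% on day 0, 17.0% on day 1, 13.5% on day 3 and 4.58% on day 6.

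The rule took cells high in either gene as well as in both. The median cell had 8 *Krt4* and 18 *Psca* UMIs on day 3, with highest values of 138 and 1211, and 5 *Krt4* and 13 *Psca* UMIs on day 6, with highest values of 41 and 449. On day 3, 77 cells had at least 5 UMIs of both genes, 29 reached 5 only with *Psca*, 25 only with *Krt4* and 10 only with the sum. On day 6 these numbers were 28, 47, 32 and 7. A *Krt4* UMI was absent from 10 cells on day 3 and 28 on day 6, and a *Psca* UMI from 17 and 22. As a background for free RNA, in the sorted cells with at least 2 *Pax2* UMIs or no *Epcam* UMI, *Krt4* was found in 11.4% of 44 cells on day 3 and 2.47% of 81 cells on day 6, at median depths of 8063.5 and 10432 UMIs. *Psca* was found in 9.09% and 1.23% of them, and 3 and 0 of them reached 5 UMIs of the pair. Among the other epithelial cells, *Krt4* was found in 13.0% and 7.16% and *Psca* in 6.66% and 4.76%, with overlapping intervals for *Krt4* on both days and for *Psca* on both. The 44 and 81 cells were few and shallower, and some may express the genes. This overlap therefore does not show that the UMIs of the other cells were free RNA.

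The 8 cells of day 3 and 7 of day 6 at exactly 5 UMIs had *Krt19* at 1751 and 1296 CPM (the UMIs of a gene summed over the cells, per 1000000 of all their UMIs), and the 13 cells of each day at exactly 4 UMIs had 1127 and 749 CPM. For *Krt15* the values were 9819 and 13572 CPM against 8797 and 8852 CPM.

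Across the whole range of *Krt4* and *Psca* UMIs, *Krt19* and *Krt15* levels were higher in each step up from none to 1 to 4 to 5 to 9 UMIs. *Krt19*, a keratin of simple and luminal epithelia, was at 529.6 CPM on day 3 in cells with no such UMI, 700.0 CPM at 1 to 4, 1901 CPM at 5 to 9, 1785 CPM at 10 to 29 and 3302 CPM at 30 or more. On day 6 the same 5 bins held 517, 813, 1524, 1996 and 4324 CPM. *Krt5*, the basal keratin, had its highest level in the middle of the range and not at its end: on day 3 it was 659, 1066, 1650.5, 1392 and 979 CPM, and on day 6 1182, 1675, 1954, 2239 and 1774 CPM. *Spink5*, an inhibitor of skin proteases, was highest in cells with 10 or more such UMIs on day 6 (483 and 712 CPM in the upper bins against 52.4 CPM at 5 to 9) and in those with 30 or more on day 3 (141 against 8.80 CPM).

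**Figure D2:**
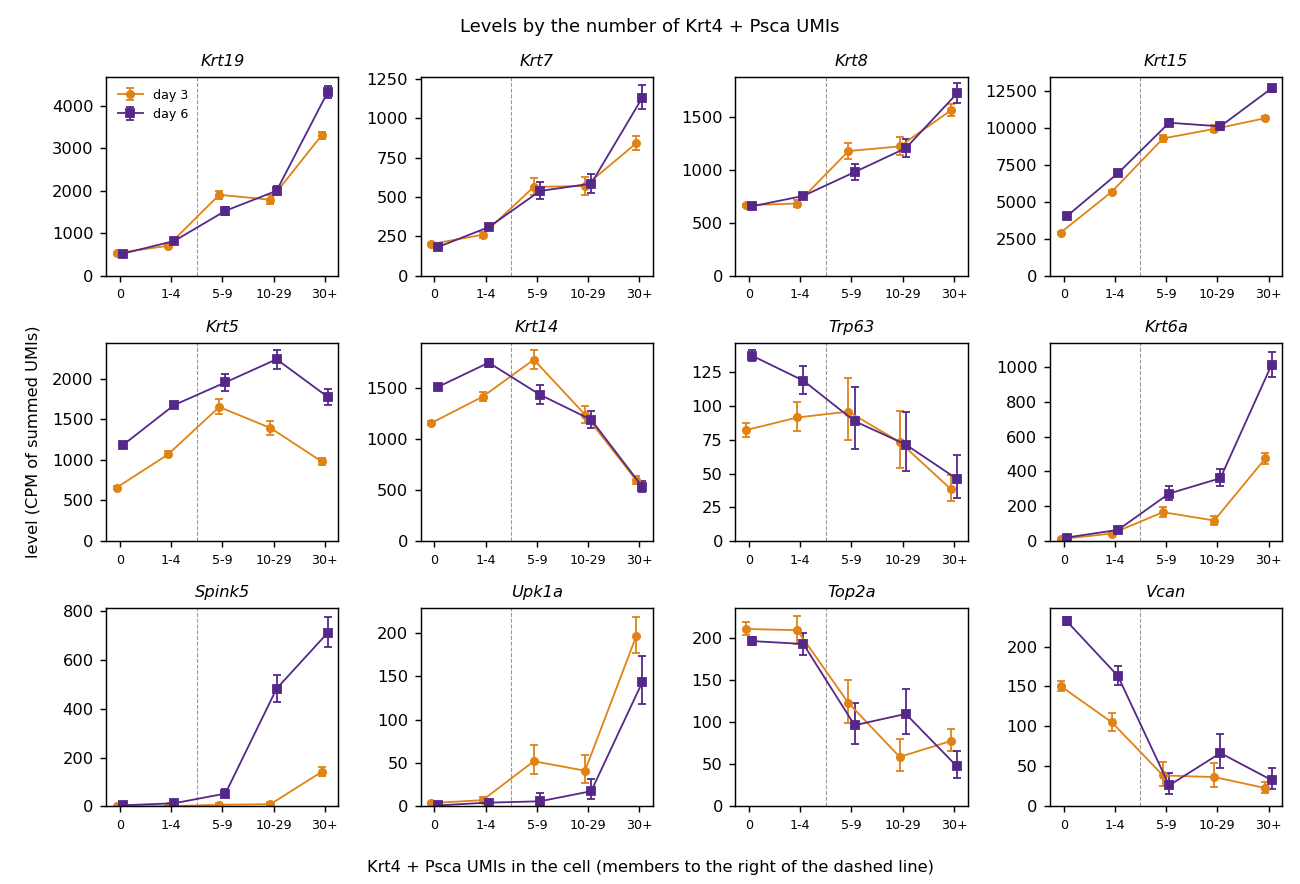
Level of 12 genes (vertical axes, CPM of summed UMIs, each from 0) in cells grouped by their *Krt4* plus *Psca* UMIs (horizontal axes); circles are day 3, squares day 6, bars 95% exact Poisson intervals, and the Krt4 Psca cells lie to the right of the dashed line. *Krt19* reached 3302 CPM on day 3 and 4324 CPM on day 6 in the last bin, while *Krt5* was highest in the middle bins.

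To compare all genes by size, the log2 ratio of the CPM plus 1 in the Krt4 Psca cells to that in the other cells of the same day was taken for 5459 genes that had, on each of the days, at least 20 CPM in one or other set of cells. A gene below 20 CPM in one set passed only through its level in the other, which fixed its direction on that day. The list counts and medians given further on include such genes. On day 3, 284 genes were at least 2-fold higher (5.2%) and 196 at least 2-fold lower (3.59%), and on day 6, 274 were higher (5.02%) and 229 lower (4.19%). On both days, 230 genes were higher (4.21%) and 132 lower (2.42%), together 6.63% of the genes compared, and 1 gene (0.0183%), *Upk3a*, passed 2-fold in opposite directions. The median log2 ratio of all these genes was −0.07 on day 3 and −0.09 on day 6. The cells were chosen from the same counts, so these are sizes and not tests. List counts given further on are to be read beside these shares, and none was tested.

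The keratins showed luminal and basal genes together, so the name luminal-like held only in part, and the cells are called here by the genes that chose them. Of 6 luminal keratin and surface genes compared of 8, *Krt19* and *Krt7* were at least 2-fold higher on both days, with list medians of 0.89 and 1.02. *Krt19* was at 2656 CPM in the Krt4 Psca cells and 561 CPM in the other cells on day 3, and at 2693 and 553 CPM on day 6. The difference was 4.74-fold (95% interval 4.60 to 4.88) and 4.87-fold (4.72 to 5.01). *Krt7*, another keratin of ducts and urothelium, was at 719 against 211 CPM and 769 against 196 CPM. *Krt8* and *Krt18*, the paired keratins of simple epithelia, differed less: *Krt8* was at 1399 against 667 CPM on day 3 and 1318 against 666 CPM on day 6. Of the basal side, 1 of 13 genes compared, *Krt15*, was at least 2-fold higher on both days, at 10182 CPM (95% interval 10072 to 10293) against 3409 CPM on day 3 and 11124 CPM (10981 to 11269) against 4374 CPM on day 6. *Krt5* was at 1223 against 733 CPM and 1975 against 1243 CPM, and at least 1 UMI of *Krt5* and 1 of *Krt8* were found together in 120 of the 141 cells (85.1%) and 103 of the 114 (90.4%), against 76.7% and 79.7% of the other cells. Doublets of cells of the same day were not removed, and their part in this was not tested. *Apoe* and *Vcan* were at least 2-fold lower, and the list medians were −0.26 and −0.58. Of all genes compared, 4.21% were higher and 2.42% lower on both days. *Trp63*, the basal transcription factor, was at 59.2 against 83.9 CPM and 67.9 against 135 CPM, and *Itga6*, an integrin that binds laminin, at 73.1 against 131 CPM and 97.7 against 213 CPM.

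The 12 genes highest on both days held 1 gene of the stratified list (*Krt6a*), 1 of the urothelial list (*Upk1a*) and 2 of the proximal luminal list (*Ly6d* and *Nupr1*) described further on. *Spink5* was at 82.1 CPM (72.5 to 92.6) in the Krt4 Psca cells and 0.476 CPM in the others on day 3, and at 425 CPM (397 to 454) and 5.46 CPM on day 6. It was 172-fold (86.3 to 404) and 77.8-fold (66.5 to 91.4) higher. It was detected in 28 cells on day 3 and 52 on day 6, and the cell with the most held 20.8% and 9.52% of its UMIs. *Krt6a*, a keratin of inner and wounded stratified layers, was at 327 against 16.5 CPM and 570.1 against 25.2 CPM, in 78 and 66 cells. *Crnn*, cornulin of squamous mucosa, had log2 ratios of 4.16 on day 3 and 4.67 on day 6. *Asprv1*, the skin aspartic protease, had 4.97 and 4.25, and *Klk13*, a kallikrein protease, 3.73 and 4.28. *Upk1a*, a tetraspanin of the urothelial plaque, was at 129.8 against 4.46 CPM on day 3 and 59.7 against 1.52 CPM on day 6, in 81 and 32 cells.

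The other leading genes were not of a single kind. *Ly6d* and *Lypd2* encode small surface proteins of the same wide family as *Psca*: *Ly6d* was at 549.6 against 28.1 CPM and 882 against 50.5 CPM, and *Lypd2* at 360.0 against 26.8 CPM and 211 against 17.2 CPM. Of the 12, *Lypd2* was detected in the most cells, 119 of 141 and 74 of 114 cells, and *Ly6d* was in 65 and 47. *Nupr1*, a stress-inducible nuclear protein, was at 441 against 25.5 CPM and 392 against 16.5 CPM. *Arg1*, an arginase, had log2 ratios of 4.74 and 4.63, *Lrrc26*, an accessory subunit of the BK potassium channel, 4.67 and 4.30, and *Clic3*, a chloride intracellular channel protein, 4.10 and 3.66. When each cell was thinned to 5000 UMIs, which left out 2 Krt4 Psca cells of day 3 and 4 of day 6, *Clic3* was found in 20.1% and 23.6% of the Krt4 Psca cells against 1.45% and 1.95% of the others. Before thinning these shares were 48.9% and 47.4% against 3.22% and 3.71%.

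The 12 lowest genes included both main chains of the basement membrane collagen. *Col4a1*, a chain of type IV collagen, was at 58.9 CPM (50.8 to 67.9) against 270.3 CPM on day 3 and 78.5 (66.9 to 91.5) against 312 CPM on day 6, and its partner *Col4a2* at 28.5 against 108 CPM and 29.4 against 143 CPM. *Vcan*, a matrix proteoglycan, was at 29.4 against 142 CPM and 40.9 against 223 CPM. *Etv4*, an ETS factor induced by FGF signaling, was at 27.6 against 149 CPM and 25.04 against 106 CPM. *Sct*, the hormone secretin, had log2 ratios of −3.33 and −3.29, with 6 and 5 Krt4 Psca cells holding any UMI. The imprinted genes *Dlk1* and *Mest* were low as well, at −3.06 and −1.94 and at −3.08 and −2.46, and 1 cell held 71.0% and 50% of the *Mest* UMIs left. Others among them were *Spsb4*, *Hs3st3a1*, *Col9a3* and *1500009L16Rik*, between −2.94 and −1.89.

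**Figure D3:**
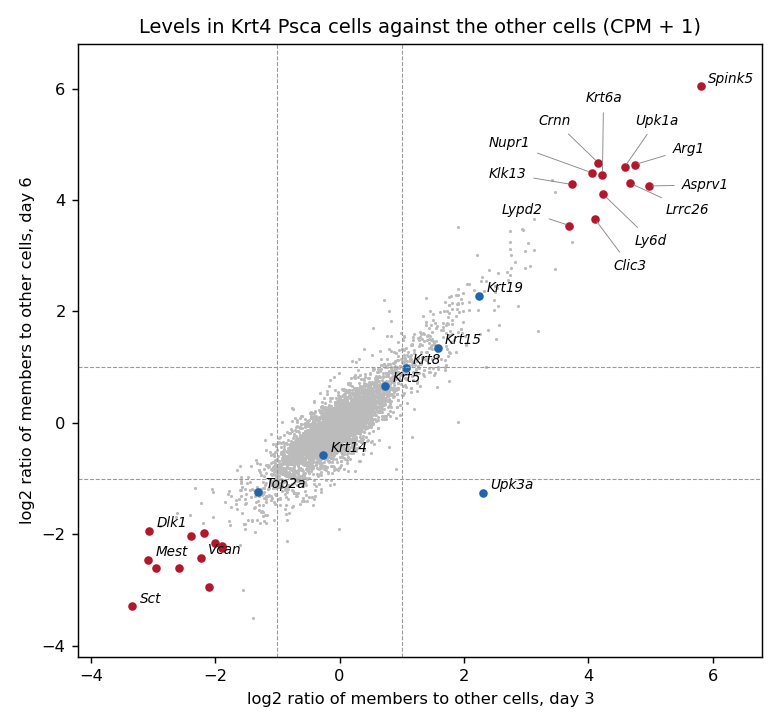
Log2 ratio of the level (CPM plus 1) in Krt4 Psca cells to that in the other epithelial cells on day 3 (horizontal axis) and day 6 (vertical axis), 1 point for each of 5459 genes, with the 2-fold limits drawn and leading genes named. *Spink5* lay at 5.82 and 6.04 and *Sct* at −3.33 and −3.29, and *Upk3a* was the gene past 2-fold in opposite directions.

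Genes that mark proximal luminal cells were higher for the most part. The study chose this list partly on these samples, so its direction is not independent evidence. Of 8 genes, 7 were compared and 5 were at least 2-fold higher on both days, with medians of 1.91 on day 3 and 2.30 on day 6 beside −0.07 and −0.09 for all genes. The tetraspanin *Tspan1* had log2 ratios of 1.91 and 2.30, and *Ly6a*, which encodes the stem cell antigen Sca-1, 1.30 and 1.63. *Runx1*, the transcription factor whose reporter marks proximal cells in the adult, was below 2-fold, at 85.5 CPM (75.7 to 96.2) against 54.6 CPM (51.1 to 58.2) on day 3 and 92.0 (79.4 to 106) against 64.4 CPM (61.8 to 67.1) on day 6. Of 13 genes of prostate buds and androgen response, 9 were compared, with medians of −0.57 and −0.34. Of these, 1 was higher and 1 lower, beside 4.21% and 2.42% of all genes compared. The higher one was *Fkbp5*, a direct androgen and glucocorticoid target, at 39.0 against 11.7 CPM and 49.1 against 14.3 CPM.

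Differentiation genes of stratified epithelia were, by count, the list with the most members higher. Of 28 genes, 11 were compared and 9 were at least 2-fold higher on both days, none lower, with medians of 2.20 and 2.42. Of all genes compared, 4.21% were higher. *Sprr1a*, a precursor of the cornified envelope, was at 1359.8 against 240.2 CPM and 1808 against 329 CPM. *Ivl*, involucrin of the same envelope, was at 50.2 against 13.7 CPM and 69.8 against 16.3 CPM, and *Anxa1* and *Lgals3* had log2 ratios of 2.53 and 2.42 and of 2.69 and 2.70. Some genes of the outermost layers were hardly found: *Sprr3* was at 0.31 CPM on day 3 and 0 on day 6, and *Dsg1a* had no UMI on either day. A count of 0 allows a level of up to 0.929 CPM on day 3 and 1.44 CPM on day 6 (3 UMIs of the summed UMIs). *Krt1* had ratios of 3.41 and 4.35, but 1 cell held 67.7% of its UMIs on day 3 and 38.0% on day 6. *Krt13*, the partner of *Krt4* in mucosa and outside the genes compared by size, was at 44.6 against 1.43 CPM on day 3, in 16 cells, and at 2.41 against 0.675 CPM on day 6, in 4 cells. In the day 3 cells with at least 5 UMIs of both *Krt4* and *Psca*, which held 125 *Krt13* UMIs, 1 cell held 48% of them. *Sprr2a3* has near-identical copies whose reads cannot be told apart, so its ratios of 2.20 and 3.01 are less certain.

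Urothelial genes were also higher, some of them on the UMIs of few cells. Of 10 genes, 4 were compared, and *Upk1a*, *Upk1b* and *Foxq1* were at least 2-fold higher on both days, with list medians of 2.02 and 1.57. *Upk1b* was at 168 against 50.5 CPM and 170.4 against 49.6 CPM, and *Foxq1*, a forkhead factor, had log2 ratios of 1.71 and 1.38. *Upk3a* was at 559.8 CPM in the Krt4 Psca cells and 112 CPM in the others on day 3, but its UMIs came from 37 cells, of which 1 held 27.2% and the top 10 held 92.6%. On day 6 it was at 46.2 CPM in 18 cells and 112 CPM in the others. *Upk2* was at 44.0 against 4.16 CPM and 15.9 against 3.43 CPM, and *Krt20*, a keratin of mature umbrella cells, at 3.1 CPM on day 3 and 0 on day 6. At least 2 uroplakin UMIs were present in 81.6% and 66.7% of the Krt4 Psca cells and in 22.2% and 18.0% of the others. Without all cells that had them, 26 cells of day 3 and 38 of day 6 remained, and 233 genes were higher and 145 lower on both days. These included 172 of the 230 higher genes (74.8%) and 76 of the 132 lower genes (57.6%).

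*Krt6a* and *Upk1a* marked cells that overlapped in part. On day 3, 40 cells had a UMI of both, 38 of *Krt6a* alone, 41 of *Upk1a* alone and 22 of neither, and on day 6 the numbers were 21, 45, 11 and 37. The rank correlation of their rates per UMI across the cells was −0.14 on day 3 (141 cells) and 0.09 on day 6 (114 cells). *Psca* ranked with *Upk1a* at 0.59 and 0.50 and with *Krt19* at 0.56 and 0.61, while *Krt6a* ranked with *Ly6d* at 0.48 and 0.55. *Krt5* and *Krt8* ranked in opposite order at −0.48 on both days. *Krt4* and *Psca*, which share the limit that chose the cells, ranked at 0.45 and −0.06. All these cells share 1 library, and the values are descriptions without a test.

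Cells chosen by *Krt4* alone differed from those chosen by *Psca* in the same direction on both days for *Krt19*, *Upk1a* and *Krt6a*. *Krt19* was at 3129 CPM on day 3 in cells with at least 5 UMIs of both genes, 2366 CPM with *Psca* only and 1382 CPM with *Krt4* only, and at 4010.3, 2752 and 1528 CPM on day 6. *Upk1a* was at 172, 133 and 17.4 CPM on day 3 and 130.3, 57.6 and 3.39 CPM on day 6. Its last value is 2 UMIs in 1 cell, and 1 cell held 38.0% and 48.9% of the *Psca*-only UMIs on days 3 and 6. *Krt6a* had its highest level in the *Psca*-only cells, at 772 CPM on day 3 and 1072 CPM on day 6, against 90.7 and 168 CPM in the *Krt4*-only cells, although 1 cell held 40.5% of the *Psca*-only UMIs on day 3. *Krt15* differed less between these cells, at 10583, 8636 and 10594 CPM on day 3 and 12787, 10368 and 10398 CPM on day 6.

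Many cell cycle genes were lower, where 2.42% of all genes compared were at least 2-fold lower on both days and 4.21% higher. Of 18 genes of the G2/M phases, 17 were compared, 14 were at least 2-fold lower on both days and none higher, with medians of −1.28 and −1.30. The count depended on the limit that chose the cells: it was 2 of the 17 with a limit of 3 *Krt4* and *Psca* UMIs and between 10 and 17 under the other alternatives. *Ccnb1*, cyclin B1, was at 22.9 CPM (18.0 to 28.8) against 65.3 CPM on day 3 and 13.5 (8.96 to 19.5) against 47.8 CPM on day 6, and *Top2a*, topoisomerase II, at 84.0 against 210.0 CPM and 82.3 against 195 CPM. Of 16 S-phase genes compared, 15 had negative ratios on both days and 1, *Dtl*, was at least 2-fold lower (0 to 7 under the alternatives), with medians of −0.85 and −0.96. After thinning to 5000 UMIs, at least 5 G2/M UMIs were found in 17 of 139 Krt4 Psca cells (12.2%, 95% interval 7.29 to 18.9) and 30.1% of the others (27.1 to 33.2) on day 3, and in 10 of 110 (9.09%, 4.45 to 16.1) and 22.3% (20.7 to 24.1) on day 6. Unthinned, these shares were 20.6% and 41.2% on day 3 and 13.2% and 28.4% on day 6. The CDK inhibitor gene *Cdkn1a* was the only one of 7 growth arrest genes compared that was at least 2-fold higher on both days (medians 0.37 and −0.13), at 288 against 86.7 CPM and 365 against 90.4 CPM.

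Many junction and calcium-binding protein genes were higher. Of 9 tight junction genes compared of 17, 4 were at least 2-fold higher, none lower, with medians of 0.76 and 1.32. Without cells with at least 2 uroplakin UMIs, 0 of the 9 were past 2-fold on both days. The claudin *Cldn4* was at 461 against 169.7 CPM and 473 against 166 CPM, and *Cldn3* had log2 ratios of 1.77 and 1.65. Of 9 S100 and annexin genes compared of 14, 7 were higher, with medians of 1.53 and 1.39. *S100a14* was at 560.4 against 82.9 CPM and 619 against 97.1 CPM and *S100a6* at 2051 against 623 CPM and 1984 against 646 CPM. *S100a8* and *S100a9*, the calprotectin genes of inflamed epithelium, had no UMI in the Krt4 Psca cells of either day.

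Of the transcription factors of epithelial differentiation, 21 of 29 were compared and 7 were at least 2-fold higher on both days, none lower, with medians of 0.47 and 0.18. *Ovol1*, a zinc-finger factor that acts where epidermal progenitors leave the cycle, was at 80.2 against 14.3 CPM and 120.4 against 17.0 CPM. The ETS factors *Elf3* and *Ehf* had log2 ratios of 1.98 and 1.81 and of 1.78 and 1.26. *Klf5* had 1.31 and 1.28, *Klf3* 1.13 and 1.10, *Barx2* 2.04 and 1.39, and *Grhl1*, a grainyhead-like factor, 1.40 and 1.12. *Id3*, an inhibitor of helix-loop-helix factors, lay on the other side without reaching 2-fold, at −0.63 and −0.81.

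Among signaling genes, the EGF family had all 3 of its compared members at least 2-fold higher, with medians of 2.48 and 2.03. Of all genes compared, 4.21% were higher on both days. *Areg*, amphiregulin, was at 133 against 15.4 CPM and 111 against 10.9 CPM, and *Hbegf*, a second EGF receptor ligand, at 594 against 106 CPM and 475 against 116 CPM. *Erbb3*, a receptor of the family, had log2 ratios of 1.18 and 1.5. The other 7 of the list were below the level compared, and *Areg* reached it only through the Krt4 Psca cells. Of 5 WNT genes compared of 17 (medians 0.20 and 0.45), *Wnt4* was higher, at 598 CPM against 153 CPM and 585 against 190.4 CPM, in 140 of 141 and 111 of 114 cells. Of 6 retinoid genes compared of 16 (medians 0.86 and 0.49), 2 were higher: *Crabp2*, a carrier of retinoic acid, had ratios of 1.76 and 2.12, and *Dhrs3*, a retinaldehyde reductase, 1.01 and 1.33. None of 3 Notch genes compared of 14 reached 2-fold on both days (medians 0.07 and −0.07), and *Jag2*, a ligand, came closest at −1.01 and −0.88.

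Of the stress lists, the one of low oxygen held genes at least 2-fold higher on both days. None of 14 immediate early and heat shock genes compared was at least 2-fold higher on both days, with medians of 0.52 and 0.44, and none of 5 integrated stress genes, with medians of −0.01 and −0.15. Of 11 hypoxia and glycolysis genes compared, 4 were higher and all 11 had positive ratios on both days, with medians of 0.91 and 0.74. *Ndrg1* was at 164 against 59.97 CPM and 189 against 69.3 CPM, and *Bnip3*, a mitophagy receptor induced by low oxygen, at 209 against 97.9 CPM and 297 against 127 CPM. On days 0 and 1 the *Ndrg1* ratio was 0.41 and −0.16. The part of these genes in the other differences was not tested. Of 8 detoxification genes compared of 15 (medians 1.12 and 0.84), 4 were higher, among them *Gsto1* at 1.42 and 1.58. Of 3 mucosal defence genes compared of 17 (medians 0.83 and 1.56), *Agr2*, a disulfide isomerase of mucous cells, was higher. It was at 84.6 against 8.81 CPM and 70.8 against 4.70 CPM, and was compared only through its level in the Krt4 Psca cells.

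Of the markers of other cell types, those of neuroendocrine cells had a higher summed level than in the other cells on both days. Those of mesenchyme did on day 6, though in a smaller share of cells. For 8 mesenchyme markers the summed level was 22.9 CPM in the Krt4 Psca cells and 42.6 CPM in the others on day 3. On day 6 it was 58.3 and 48.2 CPM, where 1 marker of the 8 was at 0. A UMI of these 8 was in 17.0% of the Krt4 Psca cells and 38.5% of the others on day 3. On day 6 these shares were 15.8% and 34.3%. The 1 marker compared had log2 ratios of −1.60 and −0.77. The same measure, the summed level, is given for the lists that follow. The summed level of 6 mesonephric markers was 33.1 against 46.7 CPM and 35.6 against 44.5 CPM, with 1 at 0 on each day. That of 6 endothelial markers was 14.3 against 27.5 CPM and 16.4 against 23.5 CPM, with 4 and 3 at 0 and *Egfl7* giving most of it. Of 6 immune markers 4 and 5 were at 0, *Ptprc* among them, and of 6 erythroid markers 5 and 5. The erythroid sum was 0.31 against 0.238 CPM and 0.481 against 0.338 CPM, below the level of 3 UMIs in the Krt4 Psca cells, and that of the immune markers 1.24 against 2.74 CPM and 2.41 against 6.67 CPM. The summed level of 6 neuroendocrine markers was 49.3 against 12.3 CPM and 35.6 against 9.85 CPM, and 22.7% and 16.7% of the Krt4 Psca cells held a UMI of the list against 6.99% and 5.82% of the others. Of the 6, 4 and 5 were at 0, with *Chga*, *Chgb* and *Syp* at 0 on both days. Of the list, *Calca*, which encodes the peptide CGRP and calcitonin, was at 48.6 against 5.83 CPM and 35.6 against 7.51 CPM, in 30 and 19 cells, and did not pass 2-fold on both days without cells with at least 2 uroplakin UMIs. *Calca* was compared by size only through its level in the Krt4 Psca cells. The part of these cell type markers in the other differences was not tested.

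**Figure D4:**
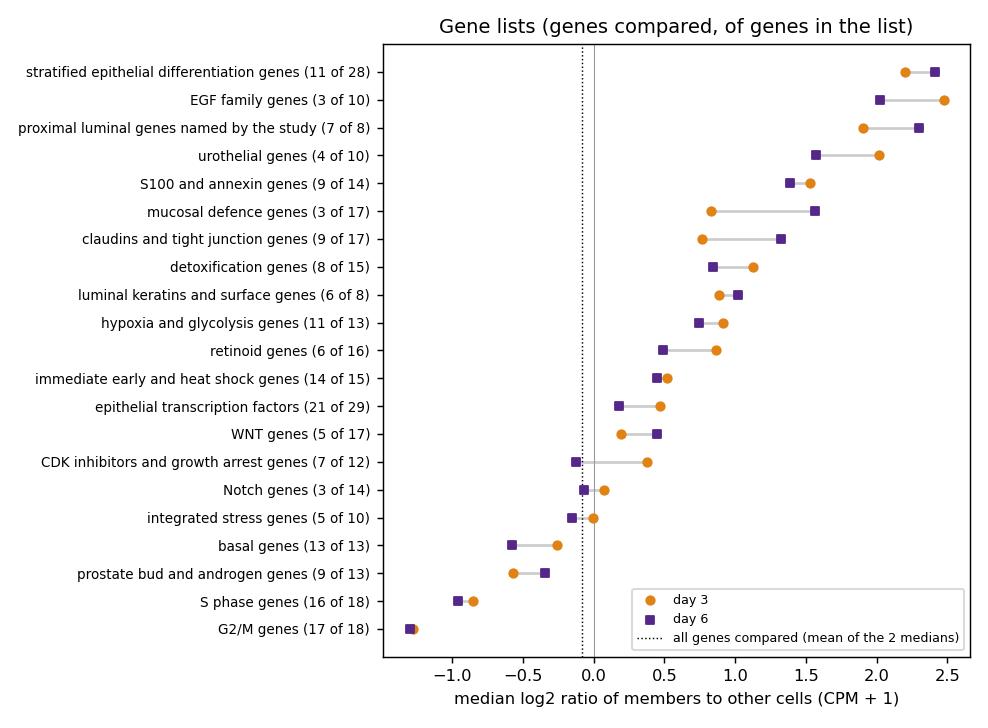
Median log2 ratio of Krt4 Psca cells to other cells (horizontal axis) for each gene list (vertical axis, with the genes compared of those listed); circles are day 3, squares day 6, and the dotted line is the mean of the medians of all genes compared on the 2 days. The stratified list reached 2.20 and 2.42 and the G2/M list −1.28 and −1.30.

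Between the days, few genes differed by 2-fold in the Krt4 Psca cells themselves. Of the 5160 genes compared by size that reached 20 CPM in them on either day, 17 were at least 2-fold higher on day 6 (0.329%) and 23 at least 2-fold lower (0.446%). *Upk3a* was furthest from the change in the other cells, with a log2 ratio of day 6 to day 3 of −3.57 in the Krt4 Psca cells, while the other cells were at 112 CPM on both days. *Krt10*, a keratin of differentiated epidermis, was at 26.6 CPM on day 3 and 104 CPM on day 6, with 40.7% and 25.8% of its UMIs in 1 cell. *Gstm1* was at 197 and 71.7 CPM, where 1 cell held 33.3% of the day 3 UMIs.

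Several of these genes also had positive ratios before day 3, mostly smaller ones. By the same limits, the log2 ratio of *Spink5* was 2.77 on day 0 and 1.42 on day 1, that of *Ly6d* 4.05 and 3.23, that of *Upk1a* 2.66 and 3.57, and that of *Krt6a* 1.80 and 1.58. *Krt19* had 0.78 and 0.93, and *Krt15* 0.66 and 0.72. *Runx1* had −0.58 and −0.08, below its values of 0.64 and 0.51 on days 3 and 6. The cells chosen on days 0 and 1 had the larger median depths given above. At least 2 uroplakin UMIs were present in 96.9% of them on day 0 and 93.5% on day 1, against 46.1% and 33.4% of the others. They may thus not be the same kind of cells as those of days 3 and 6. The part of depth and of uroplakin-positive cells in these ratios and in the shares of days 0 and 1 was not tested.

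In the adult prostates the same limits chose cells whose ratios to the other cells of their run were partly different. Such a ratio also depends on the other cells, which came from adult prostate here and from explants above. Among intact cells, 184 of 750 (24.5%) met them in run 1, 122 of 1045 (11.7%) in run 2 and 142 of 1844 (7.70%) in run 3. RFP+ fractions gave 84.2%, 86.9% and 98.6% of these, against 64.3%, 53.7% and 59.5% of all the cells compared. The anterior lobe gave 161 of 184, 105 of 122 and 115 of 142 of them. Of all the cells compared, it gave 567 of 750, 553 of 1045 and 662 of 1844. In runs 1 and 2, 1 barcode each named no cell. The paper reports that labeling of the RFP+ dorsolateral cells of intact mice failed in these runs. Lobe and RFP counts of these runs may therefore lack such cells. *Krt19* was at 3711, 2609.6 and 2186 CPM in the adult Krt4 Psca cells against 405, 401 and 293 CPM in the other cells. *Clic3* had log2 ratios of 5.18, 4.16 and 4.79. *Krt5* was on the other side from the explants: it had −2.16, −0.56 and −2.98 in the adult runs and 0.74 and 0.67 on days 3 and 6. *Krt14* had −2.29, −1.52 and −3.71 against −0.26 and −0.58 in the explants, where it did not reach 2-fold and was at 0.29 (the value nearest 0 of the days) without cells with at least 2 uroplakin UMIs. *Krt15* had −0.29, 0.96 and −0.68.

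Several leading explant genes had no such ratio in the adult. *Spink5* was at 935, 1801 and 964 CPM in the adult Krt4 Psca cells and 758, 1638 and 1276 CPM in the other adult cells, and *Crnn* and *Klk13* had no UMI in the adult Krt4 Psca cells of any run, which allows up to 0.747, 1.36 and 1.47 CPM. *Ly6d* had log2 ratios of −0.85, 5.63 and −0.68, so that run 2 differed from the others, and *Nupr1* of 0.82, −0.37 and −0.76. Of the 230 genes higher in the explant cells on both days, 172 had at least 20 CPM in all adult runs, and 90 of these (52.3%) were at least 2-fold higher in all 3 runs, where 5.7% of the 4073 genes compared were. These 90 were 38.8% of the 232 genes higher in the adult. Of the 132 lower genes, 27 were compared, 11 (40.7%) were lower in all 3 runs, where 0.81% of genes were, and 1 was higher, and the 11 were 33.3% of the 33 lower in the adult. Both sets of cells were chosen on *Krt4* and *Psca*, and animal age, tissue, mouse line and sorting into RFP fractions differed together, which cannot be told apart here.

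**Figure D5:**
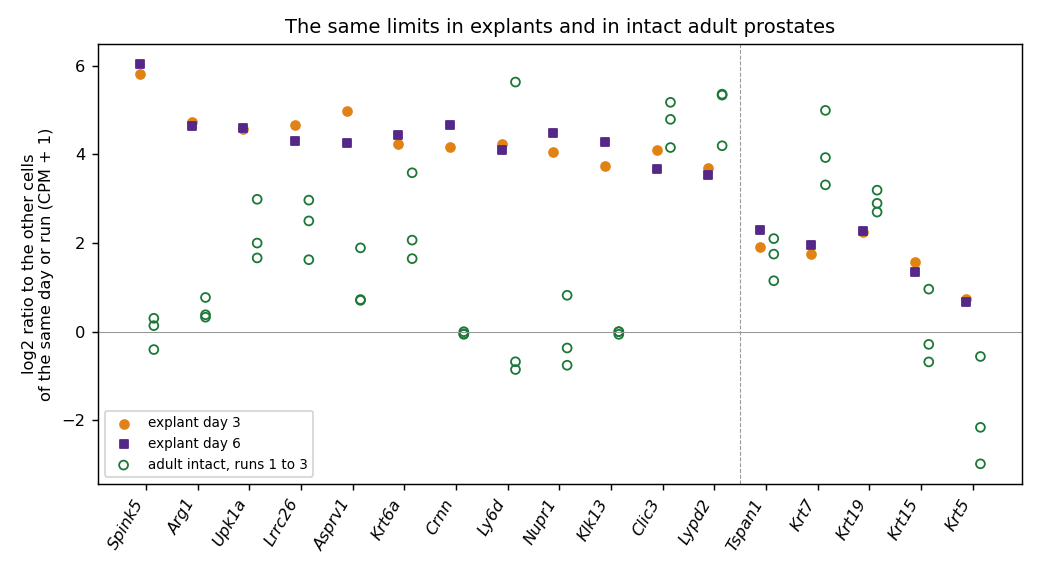
Log2 ratio of Krt4 Psca cells to the other cells of the same day or run (vertical axis, CPM plus 1) for the 12 genes leading in the explants and 5 further genes (horizontal axis); filled symbols are explant days 3 and 6 and open circles the 3 adult runs of intact prostates. *Krt5* was at 0.74 and 0.67 in the explants and between −2.98 and −0.56 in the adult.

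The bases before the starts of the genes higher on both days were searched for 3 motifs on both strands, in RefSeq windows of 250 bases before to 50 after each start (GRCm38.p6). TGACTCA, the AP-1 motif, was in 25 of 215 windows (11.6%) of the 167 higher genes with a window, in 5 of 125 (4%) of the 97 lower genes with one, in 3.21% of the windows of all genes compared by size and in 5.2% of all 32851 windows. AACCNGGTT, a grainyhead-like motif, was in 0 of 215 and 0 of 125, against 0.218% for all genes compared and 0.271% of all windows. TGTGGT, the RUNX motif, was in 15.8% and 10.4%, against 11.1% for all genes compared and 16.8% of all windows. Windows of 1 gene can overlap, a match is only these letters, and these shares were not tested. The promoters of 3 higher genes with the AP-1 motif are shown, 2 of the cornified envelope and 1 of the tight junction, each as the 250 bases before the start in the direction of the gene, with TGACTCA or its reverse complement TGAGTCA in capitals.
*Sprr1a*, chr3:92485882-92486131, minus strand: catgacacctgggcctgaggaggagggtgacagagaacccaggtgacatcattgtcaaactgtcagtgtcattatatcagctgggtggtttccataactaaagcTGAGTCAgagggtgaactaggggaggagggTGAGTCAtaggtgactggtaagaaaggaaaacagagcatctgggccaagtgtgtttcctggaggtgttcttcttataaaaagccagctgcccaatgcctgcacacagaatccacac
*Ivl*, chr3:92573736-92573985, minus strand: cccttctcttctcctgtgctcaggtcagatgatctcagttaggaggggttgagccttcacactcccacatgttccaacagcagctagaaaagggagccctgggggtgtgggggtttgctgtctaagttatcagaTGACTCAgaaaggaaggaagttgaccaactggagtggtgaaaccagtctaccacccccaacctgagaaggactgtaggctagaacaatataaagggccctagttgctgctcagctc
*Cldn4*, chr5:134946935-134947184, minus strand: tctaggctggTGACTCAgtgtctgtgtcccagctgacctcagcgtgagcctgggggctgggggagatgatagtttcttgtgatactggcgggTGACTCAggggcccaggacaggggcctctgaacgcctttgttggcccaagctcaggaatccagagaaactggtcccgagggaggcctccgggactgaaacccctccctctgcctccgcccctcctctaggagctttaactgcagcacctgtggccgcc
The genes of AP-1 subunits were present in both sets of cells: *Fos* was at 3076 against 2145 CPM and 1881 against 1696 CPM, and *Jun* at 2386 against 1716 CPM and 1512 against 1220.4 CPM.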

How the data were processed

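scRNA-seq was performed by the authors with the 10x Genomics 3′ v3 kit, and per the submitters' processing notes Cell Ranger 3.1.0 and Seurat 3.1.5 were used with mm10 (GRCm38). What was deposited are unnormalized UMI counts for 31053 genes and the counts of MULTI-seq barcodes of each cell. The explant library held 121090404 UMIs. Reads of near-identical genes may be lost or split in such counting. Members, gene lists and comparisons were chosen with earlier results of these data known.

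Cells were taken by the limits given above, and the day came from the barcode counts. Barcodes with a library median of 0 named no cell, which affected 1 barcode each in adult runs 1 and 2. Cells carrying barcodes of different days were removed by the barcode limits, doublets within a day were not, and no doublet caller was run. UMIs were summed over the cells of a set, scaled to 1000000 and compared as log2 of CPM plus 1. The genes that chose the cells and ribosomal and mitochondrial genes were left out of the genes compared. With 1 pooled sample a day no test was made. A gene was counted as higher or lower past 2-fold on both days. Named genes were the 12 furthest from 0 each way by the smaller ratio of the days, the 4 furthest of each of 27 lists, and members of those lists. Intervals are 95% exact Poisson or Clopper-Pearson intervals, and for a ratio of levels the exact conditional binomial interval. The script was tested on simulated data. Python 3.11.15, numpy 2.4.6, scipy 1.17.1, pandas 2.3.3 and matplotlib 3.10.9 were used. Castrated adults were not used. Some genes that the rule would name are not reported here.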

Additional observations from a re-analysis of the deposited data

Results flagged for a closer look

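*Upk3a*, a uroplakin of the urothelial plaque, was the gene whose ratio passed 2-fold in opposite directions on the days. Its log2 ratio of Krt4 Psca cells to other cells was 2.31 on day 3 and −1.25 on day 6. The difference between the days was not tested, since each day is 1 pooled sample. On day 3 the gene was detected in 37 Krt4 Psca cells, of which the 10 highest held 92.6% of its UMIs, and on day 6 in 18, of which the 10 highest held 87.5%. In the other cells it was detected in 85 cells on day 3 and 177 on day 6.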

How the results depend on the processing

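Limits on *Krt4* plus *Psca* moved the share: at least 3 UMIs gave 15.9% on day 3 and 6.27% on day 6, at least 10 gave 9.98% and 2.81%, and at least 5 per 10000 UMIs gave 11.04% and 3.30%. The share moved most without cells with at least 2 uroplakin UMIs, to 3.58% and 1.92%. Genes at least 2-fold lower on both days fell in number from 132 to 66 with the limit of 3 UMIs and were 237 with the limit per 10000 UMIs. Without the filter on low values, 510 genes were higher and 369 lower. Median-of-ratios scaling gave 251 higher and 109 lower. Each named gene was followed by its ratio nearest 0 of the days, set to 0 where the days differed in sign. Over 210 named genes and 17 alternatives, 3441 of 3570 such ratios kept their side of 2-fold without taking the opposite sign. The other 129 did not, and 0 of those past 2-fold took the opposite sign on both days. A change of sign on 1 day only gives 0 and is not counted as opposite. *Apoe*, *Calca* and *Cldn3*, past 2-fold as reported, reached 0 under an alternative. No paired analysis was possible because 1 explant library holds all days. Genes under about 20 CPM rest on few UMIs, and the day of culture cannot be told apart from the pool of explants collected on that day.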
